A study of Mus musculus with 4 samples.

Results

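Rad21 regions at both ends of the mouse autosomes were described, 606 on the side next to the centromere and 633 on the distal side. They make up 1239 of the 33900 regions that remained after overlapping or touching peaks of 4 libraries were merged on chromosomes 1 to 19. A merged region belonged to the centromere side if it ended below position 5000000 of its chromosome in the mm9 build, and to the distal side if it began within 2000000 bp of the end of the last merged region. The remaining 32661 regions are called the interior. No region crossed either limit. Once these limits were set, positions alone decided membership, and width, sharing and fold played no part in it. The distal limit itself rests on peak calling, since it is counted from the last region, which on 7 of 19 chromosomes a single library called.

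The study asked how 53BP1 shapes repair during V(D)J recombination, and Rad21 chromatin immunoprecipitation with sequencing (ChIP-seq) mapped cohesin in the same cells. Both groups were v-Abl transformed pro-B cells, progenitors of B cells kept growing by a viral kinase. The 2 libraries called 53BP1 KO came from cells in which 53BP1, a chromatin factor of double-strand break repair, was knocked out, and the 2 called WT came from cells without that knockout. Cells of both groups were RAG1 deficient, so they lacked the nuclease that begins V(D)J recombination, carried an Emu-Bcl2 transgene that keeps arrested cells alive, and received the kinase inhibitor STI-571 at 3 uM for 4 days. Whether the libraries of a genotype stem from separate cultures or clones is not given in the labels, and the spread between them may be technical. The antibody is labelled in conflicting ways, as Rad21 in the titles and the protocol and as 53BP1 in the treatment field.

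Rad21 closes the ring of cohesin, a complex that extrudes chromatin loops until it meets CTCF and that holds sister chromatids together. Mouse autosomes carry the centromere close to a tip, next to long arrays of satellite DNA that the assembly leaves out as a gap. The tip far from the centromere is called distal here. Sequence next to either tip is rich in duplications and repeats. Where an assembly holds fewer copies of a repeat than the genome does, reads of all copies pile up on those it has, and a peak caller can list such a place in any library.

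The 4 lists held 25147 and 22794 peaks in 53BP1 KO and 21972 and 23031 in WT libraries (replicates 1 and 2, an order kept below). The second 53BP1 KO list stood apart, with a median fold of 3.67 against 4.06 to 4.15 in the other lists, and with 16.5% of peaks at a −log10 q of at least 5 against 25.9 to 27.7%. Fold (enrichment of the signal over background), p and q are the authors' own values. They belong to 1 list each, so folds were ranked within each list. The fold percentile of a peak is its rank among all peaks of its list, from 0 for the weakest to 100 for the strongest. The lists hold no read counts, so the depth of the libraries is unknown.

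On the centromere side the libraries held 440 and 418 peaks in 53BP1 KO and 396 and 389 in WT. The distal side held 465 and 406 peaks in 53BP1 KO and 396 and 400 in WT. Each side spans 38 Mb of sequence over 19 chromosomes, counted on the centromere side from position 3000000, where the assembled sequence of each mm9 autosome begins after a gap of 3 Mb. The centromere side thus held 11.6 and 11.0 peaks per Mb in 53BP1 KO and 10.4 and 10.2 in WT libraries. The distal side held 12.2 and 10.7 peaks per Mb in 53BP1 KO and 10.4 and 10.5 in WT libraries, and the interior of 2339 Mb held 10.1 and 9.15 in 53BP1 KO and 8.85 and 9.29 in WT libraries.

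Both sides were denser than the interior of the same library in 4 of 4 libraries. The excess was 1.46 ± 0.377 peaks per Mb on the centromere side, 1.16 times the interior density, and 1.61 ± 0.367 on the distal side, 1.17 times (SD, n = 4). A two-sided exact permutation test that flips the signs of the 4 differences gave p = 0.125 for each side, the lowest p that 4 libraries allow. Peaks covered 0.628% of the centromere side (mean of 4 libraries), 0.628% of the distal side and 0.534% of the interior. The distal side exceeded the centromere side by 0.158 peaks per Mb (exact permutation p = 0.75), a difference within the spread of the libraries. Without the first 53BP1 KO library that difference was −0.00877. The centromere excess depends on where the sequence is taken to begin: if the gap of 3 Mb is counted, it becomes −5.03 peaks per Mb.

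Spacing of neighbouring regions was similar in all 3 compartments. The median gap was 23.3 kb on the centromere side, 26.1 kb on the distal side and 24.0 kb in the interior, and the 90th percentile of the gaps was 122.3, 123.3 and 128.4 kb in the same order. The longest gap was 951 kb on the centromere side and 1371 kb on the distal side. The region nearest inside the centromere limit lay at chr7:4997454-4999759, with folds of 4.08 and 3.25 in 53BP1 KO and 3.81 and 3.61 in WT libraries. The nearest outside lay at chr8:5000516-5001630 and was listed in the second library of each genotype, with folds of 3.39 in 53BP1 KO and 3.32 in WT. Nearest the distal limit on its inside was chr7:150480894-150481573, with a fold of 3.45 in the second WT library only, and the nearest outside was chr10:127983320-127983905, with 4.09 and 4.01 in 53BP1 KO and 4.48 and 3.44 in WT libraries.

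Density along the ends was uneven. In steps of 0.5 Mb the outermost step was the densest of the centromere side, with 13.0 ± 0.657 peaks per Mb (mean ± SD of 4 libraries), and the 3 steps inward held 10.1, 9.74 and 10.4. The outermost distal step held 15.3 ± 1.34 peaks per Mb and the next 3 held 8.47, 9.53 and 10.6. Further in, beyond the limit of the distal side, density was higher again, with 16.1 peaks per Mb at 2 to 2.5 Mb and 19.7 ± 1.65 at 4 to 4.5 Mb. The choice of limits therefore matters. With a distal side of 5 Mb the excess over the interior was 3.64 peaks per Mb, and with a centromere side up to position 8000000 it was 0.220 (exact permutation p = 0.125 and 0.25). The distal side then exceeded the centromere side by 3.42 peaks per Mb (exact permutation p = 0.125). The distal windows end at a region by construction, which adds that region to the outermost step.

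**Figure D1:**
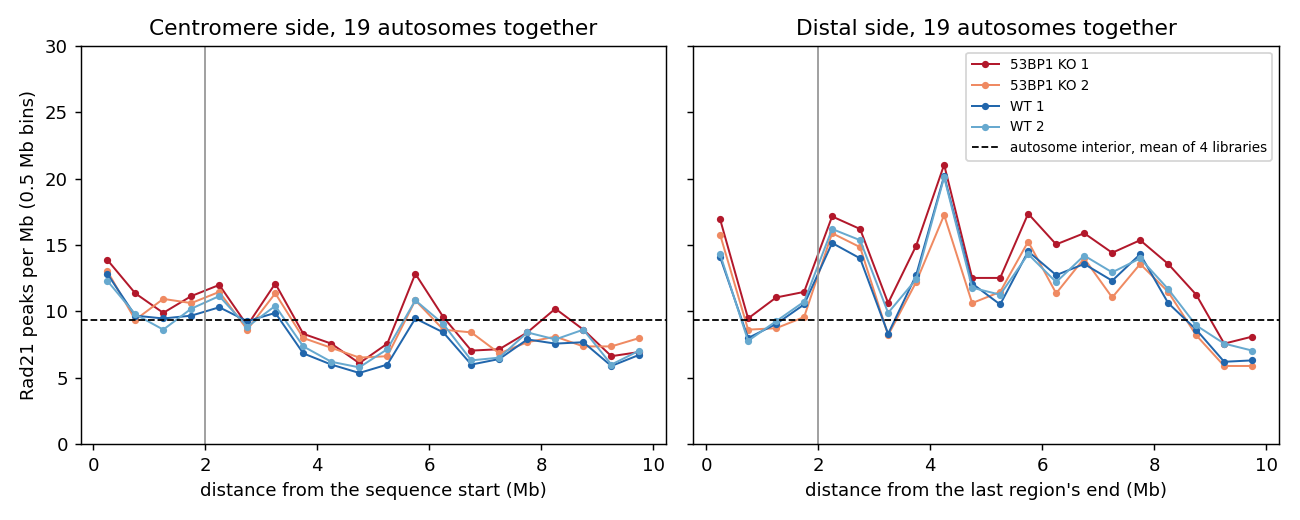
Rad21 peaks per Mb (vertical axis) in steps of 0.5 Mb over 19 autosomes together, by distance in Mb from the start of the sequence (left) and from the end of the last region (right). Each line is 1 library, the grey line marks the limit of the side at 2 Mb and the dashed line the interior mean of 9.35; all 4 libraries share the dense outermost step, the dip after it on the distal side and the peak at 4 to 4.5 Mb. The outermost step on the left includes the first 40 kb of chromosome 9.

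The mean hides a wide spread between chromosomes. On the centromere side, densities (mean of 4 libraries) lay between 0.375 and 26.0 peaks per Mb with a median of 9.5, and 10 of 19 chromosomes were denser there than in their own interior. Distal densities lay between 2.88 and 23.75 with a median of 11.9, and 11 of 19 chromosomes were denser than their interior. The ratio of a side to its own interior had a median of 1.00 on the centromere side (0.0489 to 2.02) and 1.12 on the distal side (0.358 to 2.51). The distal side was the denser of the pair on 9 of 19 chromosomes. For scale, 1162 windows of 2 Mb in the interior had a median of 8.13 peaks per Mb, with 0.875 at the 10th and 19.75 at the 90th percentile.

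The densest centromere side was that of chromosome 19, with 53 and 50 peaks in 53BP1 KO and 54 and 51 in WT libraries. Its 26.0 peaks per Mb stood at percentile 97.4 of the interior windows. In the RefSeq order of GRCm38.p6 the first genes of this chromosome include Ighmbp2, a helicase, Cpt1a, which brings fatty acids into mitochondria, and Lrp5, a Wnt co-receptor. Chromosome 11 followed with 57 and 46 peaks in 53BP1 KO and 46 and 47 in WT libraries (24.5 per Mb, percentile 96.2). Its first genes include Sfi1, a centrosome protein, Patz1, a zinc finger transcription factor, and the kinase Limk2. Chromosome 16 held 37 and 38 peaks in 53BP1 KO and 37 and 30 in WT libraries (17.75 per Mb). Gene order is given for orientation only, since no annotation of mm9 was used here and no peak was assigned to a gene.

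At the other extreme, the centromere side of chromosome 3 held 0 and 2 peaks in 53BP1 KO and 1 and 0 in WT libraries, or 0.375 per Mb. The first genes of that chromosome include Hnf4g, a nuclear receptor, Zfhx4, a homeobox gene, and Il7, a cytokine that B cell progenitors need. Gene order gives no coordinates, so whether a gene lies within a side is not known. Chromosome 14 held 2 and 1 peaks in 53BP1 KO and 0 and 1 in WT libraries (0.5 per Mb). Its first genes are mostly unnamed gene models. Chromosome 1 held 2 and 3 peaks in 53BP1 KO and 2 and 4 in WT libraries (1.38 per Mb). Its first genes are Xkr4, Rp1 and Sox17. These 3 sides were nearly free of Rad21 peaks in every library.

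The densest distal ends were those of chromosomes 2, 11 and 4. Chromosome 2 held 56 and 37 peaks in 53BP1 KO and 49 and 48 in WT libraries, or 23.75 per Mb, percentile 95.5 of the interior windows. Its last genes include Rgs19, a regulator of G protein signalling, Oprl1, the nociceptin receptor, and Myt1, a zinc finger transcription factor. Chromosome 11 held 47 and 43 peaks in 53BP1 KO and 43 and 39 in WT libraries (21.5 per Mb, percentile 92.9), so both its ends were dense. Chromosome 4 held 48 and 30 peaks in 53BP1 KO and 35 and 43 in WT libraries (19.5 per Mb). Its last genes include Agrn, Isg15 and Noc2l. At this end the 2 WT counts lay between the 2 53BP1 KO counts. The sparsest distal ends were those of chromosome 14 with 10 and 4 peaks in 53BP1 KO and 4 and 5 in WT libraries (2.88 per Mb), chromosome 3 with 9 and 6 in 53BP1 KO and 7 and 8 in WT, and chromosome 13 with 6 and 9 in 53BP1 KO and 8 and 7 in WT (3.75 per Mb each). The last genes of chromosome 14 include Nalcn, a sodium leak channel, and Fgf14. Chromosomes 3 and 14 were thus poor in Rad21 peaks at both ends.

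**Figure D2:**
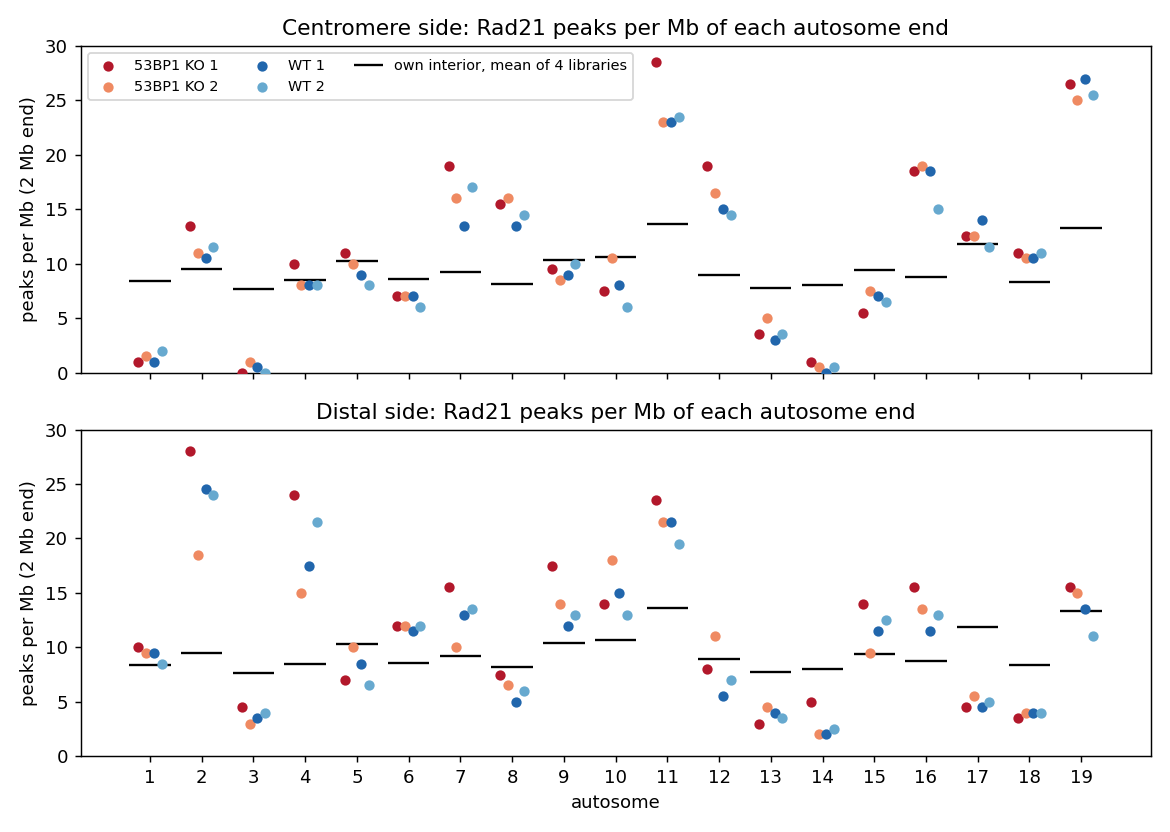
Rad21 peaks per Mb (vertical axis) on the centromere side (top) and the distal side (bottom) of each autosome (horizontal axis). Points are single libraries, 53BP1 KO left of WT, and bars mark each chromosome's own interior density as the mean of 4 libraries; chromosomes 11 and 19 stand high on the centromere side at 24.5 and 26.0, and chromosomes 1, 3 and 14 lie near 0.

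The comparison of genotypes asked whether cohesin peaks at the ends differ without 53BP1. On the centromere side peaks numbered 429 ± 15.6 in 53BP1 KO and 392.5 ± 4.95 in WT libraries (mean ± SD, n = 2 each), a difference of 36.5 or 1.09 times. Distal peaks numbered 435.5 ± 41.7 in 53BP1 KO and 398 ± 2.83 in WT libraries, a difference of 37.5, also 1.09 times. Both 53BP1 KO counts lay above both WT counts on either side, and the exact permutation test (two-sided, 6 arrangements of the libraries) gave p = 0.333, the lowest it can give. The peak names carry a prefix shared by both libraries of a replicate number, a possible batch, and within numbers 1 and 2 the differences were 44 and 29 peaks on the centromere side and 69 and 6 on the distal side. Without the first 53BP1 KO library the distal difference was 8 peaks, and without the second it was 67.

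Relative to list length the difference was small, and the difference in number turned round under stricter thresholds while that in share did not. As a share of the autosome peaks of its list, the centromere side took 1.79 and 1.88% in 53BP1 KO and 1.84 and 1.73% in WT libraries, and the distal side 1.89 and 1.83% in 53BP1 KO and 1.84 and 1.78% in WT. The shares overlapped between the genotypes on both sides (difference 0.0499 and 0.0494 percentage points, exact permutation p = 0.667 each). Within replicate numbers 1 and 2 the share differed by −0.0529 and 0.153 points on the centromere side and by 0.0488 and 0.0499 on the distal side, and the centromere difference was −0.00809 without the second WT library. With the same number of peaks taken from every list, the difference in number was 15 on the centromere side and 8.5 on the distal side (exact permutation p = 0.667 each). Counting peaks at or above a −log10 q of 5, the difference in number was −22 on the centromere side and −7 on the distal side. The centromere side held 132 and 84 such peaks in 53BP1 KO and 130 in each WT library. Distal counts were 123 and 88 in 53BP1 KO and 112 and 113 in WT. The first 53BP1 KO library thus stayed above both WT libraries on either side, and only the second fell below them. Counting those with a fold of 4 or more, it was −31 and −25. The interior held 6180 and 3529 peaks at that −log10 q in 53BP1 KO and 5580 and 6041 in WT libraries, so the second 53BP1 KO list was low there too. As a share of the autosome peaks that passed, the difference was 0.00964 points (centromere) and 0.284 points (distal) at the −log10 q of 5, and 0.0340 and 0.0296 points at the fold of 4.

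By chromosome, both 53BP1 KO counts exceeded both WT counts on the centromere side of 3 of 19 chromosomes (15.8%) and on the distal side of 5 of 19 (26.3%), where 20.7% of the interior windows of 2 Mb showed that pattern. The opposite pattern occurred on 0 chromosomes on either side, against 5.34% of the windows. The 3 centromere sides were those of chromosome 12 with 38 and 33 peaks in 53BP1 KO and 30 and 29 in WT, chromosome 5 with 22 and 20 in 53BP1 KO and 18 and 16 in WT, and chromosome 8 with 31 and 32 in 53BP1 KO and 27 and 29 in WT. At its distal end chromosome 12 held 16 and 22 peaks in 53BP1 KO and 11 and 14 in WT, and chromosome 9 held 35 and 28 in 53BP1 KO and 24 and 26 in WT. The other 3 distal ends were those of chromosomes 19, 16 and 8. Chromosomes 8 and 12 showed the pattern at both ends; chromosome 12 also carries the immunoglobulin heavy chain locus, inward of its distal side. These shares lie around that of the interior windows.

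Sharing between libraries was much as elsewhere on the autosomes. All 4 libraries called 263 of the 606 centromere regions (43.4%) and 260 of the 633 distal regions (41.1%), beside 41.8% of all autosome regions. A single library called 181 centromere regions (29.9%) and 201 distal regions (31.8%), beside 30.6% of all. Of these, 65 centromere regions stood in the first and 59 in the second 53BP1 KO list, against 24 and 33 in the WT lists. The distal counts were 72 and 64 in 53BP1 KO and 32 and 33 in WT lists. Most regions of a single library on both sides thus came from 53BP1 KO lists, as they did in the interior, with 3553 and 2941 in 53BP1 KO and 1506 and 1993 in WT lists. Of the distal regions missing from exactly 1 library, 11 and 35 were missing from the first and second 53BP1 KO list and 13 and 18 from the WT lists. The centromere counts were 18 and 24 for 53BP1 KO and 16 and 20 for WT lists. Regions missing from the second 53BP1 KO list only made up 5.53% of distal, 3.96% of centromere and 5.50% of interior regions. That list also had the lowest share of peaks at a −log10 q of at least 5, and a link was not tested.

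**Figure D3:**
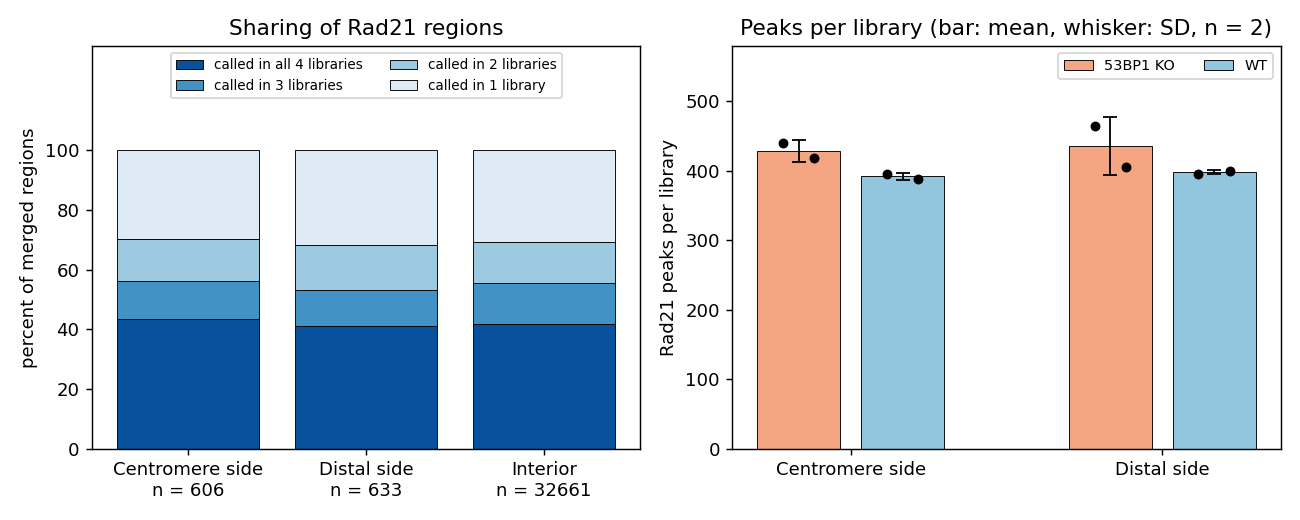
Left, percent of merged regions (vertical axis) called in 4, 3, 2 or 1 libraries on the centromere side, the distal side and in the interior. Right, peaks per library on both sides, with points for libraries, bars for the mean and whiskers for the SD of 53BP1 KO and WT (n = 2 each); the stacked shares are alike in the 3 compartments, and the 53BP1 KO bars reach 429 and 435.5 against 392.5 and 398 for WT.

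Regions that followed genotype were few and weak. Both 53BP1 KO libraries and no WT library called 19 centromere regions (3.14%) and 20 distal regions (3.16%), beside 3.02% of all autosome regions. Both WT libraries and no 53BP1 KO library called 10 centromere regions (1.65%) and 11 distal regions (1.74%), beside 2.19% of all. The regions found in 53BP1 KO only lay on 11 chromosomes on either side, with at most 4 on one centromere side (chromosome 11) and at most 3 on one distal side. Their median fold percentiles in the 2 53BP1 KO lists were 22.3 and 31.3 on the centromere side and 35.5 and 33.1 on the distal side. The regions found in WT only had 29.2 and 25.6 on the centromere side and 28.9 and 24.8 on the distal side in the WT lists. Regions of all 4 libraries ranked at 69.6 and 58.8 in 53BP1 KO and 65.2 and 67.9 in WT lists on the centromere side, and at 74.1 and 63.1 in 53BP1 KO and 69.2 and 66.4 in WT lists on the distal side. Regions that followed genotype were thus mostly in the weaker part of each list. This was not particular to the ends: interior regions of 53BP1 KO only ranked at 28.9 and 37.1, and those of WT only at 31.0 and 30.8. Nor was it particular to genotype, as regions of a single library ranked low too. On the centromere side these had 23.6 and 44.9 in 53BP1 KO and 25.9 and 24.6 in WT lists. On the distal side they had 23.8 and 30.2 in 53BP1 KO and 32.1 and 23.3 in WT lists. Leaving out any 1 library raised the counts, to 35 to 85 centromere and 34 to 93 distal regions in 53BP1 KO only and to 28 to 43 and 22 to 45 in WT only, since the rule then asks for 1 list fewer. The order of the classes depended on the threshold. When peaks below a fold of 4 were dropped there were 3 centromere and 5 distal regions in 53BP1 KO only, against 18 and 14 in WT only. At a −log10 q of at least 5 there were 4 centromere and 4 distal regions in 53BP1 KO only, against 10 and 3 in WT only. Peaks were dropped before these classes were formed, so such a region may hold weaker peaks of the other genotype. A region of 53BP1 KO only must also pass in the second 53BP1 KO list. That list had the lowest median fold and the lowest share of peaks at a −log10 q of at least 5. Whether the order of the classes rests on that list was not tested. Of the 19 centromere regions of 53BP1 KO only in the full lists, none reached a −log10 q of 5 in either list.

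Ranked by the lower of their percentiles, the first centromere region of 53BP1 KO only lay at chr13:3641276-3641763, with folds of 4.44 and 4.28 in the 53BP1 KO libraries. The next was at chr14:3651166-3651911 (folds 4.24 and 3.99), on a side that held at most 2 peaks in any library. First among the distal ones was the region at chr12:121045829-121046677, whose −log10 q was 5.96 and 10.2 in the 53BP1 KO lists. It was the one region of its class on either side that reached 5 in both lists. It was followed on the distal side by chr19:60302079-60302695 (folds 4.67 and 4.12) and chr14:123463116-123463732 (4.57 and 4.73). Of the regions found in WT only, chr4:3018382-3018716, with a −log10 q of 4.46 and 6.46 in the WT lists, was followed on the centromere side by chr5:3283251-3283461, with folds of 3.95 and 4.59 in the WT libraries, and chr9:3334846-3335317 (3.93 and 4.63). The first distal regions in WT only were chr15:103154357-103154737 (4.18 and 4.02) and chr12:119898412-119899187 (4.30 and 3.91). Chromosome 12 thus held regions of either class near its distal end.

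Peak widths at the ends differed from those of the interior by less than the spread between libraries. Median widths on the centromere side were 510 and 569 bp in 53BP1 KO and 498.5 and 503 bp in WT libraries. Distal medians were 488 and 585.5 bp in 53BP1 KO and 504.5 and 528 bp in WT, and in the interior 477 and 565 bp in 53BP1 KO and 516 and 511 bp in WT. The centromere side was wider than the interior by 2.88 ± 21.9 bp (SD, n = 4, wider in 2 of 4 libraries, exact permutation p = 0.875) and the distal side by 9.25 ± 14.4 bp (wider in 3 of 4, p = 0.375). Without the first 53BP1 KO library the centromere difference was −7.17 bp. Widths differed more between libraries than between compartments, and the second 53BP1 KO list had the widest peaks in all 3 compartments. At the 257 regions per side with exactly 1 peak in each library, medians were 560 and 660 bp in 53BP1 KO and 592 and 580 bp in WT on the centromere side, and 570 and 634 bp in 53BP1 KO and 583 and 611 bp in WT on the distal side.

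Merged regions were wider where more libraries called them. Regions of all 4 libraries had a median of 892 bp on the centromere side, 935.5 bp on the distal side and 923 bp in the interior, and those of a single library had 321, 333 and 316 bp in the same order. The widest centromere regions were chr7:4997454-4999759 with 2306 bp and a pair at the start of chromosome 9, of 2232 and 2217 bp. The widest distal regions were chr3:159502619-159504837 with 2219 bp, chr2:181067634-181069748 with 2115 bp and chr11:120168163-120170090 with 1928 bp. None came near the widest interior region of 5437 bp.

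Typical fold rank at the ends was close to the middle of the lists. The median fold percentile on the centromere side was 47.1 and 50.5 in 53BP1 KO and 53.3 and 56.8 in WT libraries. Distal peaks had 53.2 and 51.3 in 53BP1 KO and 53.9 and 50.6 in WT, and in the interior 50.0 and 49.9 in 53BP1 KO and 49.6 in each WT library. The centromere side ranked 2.15 ± 4.29 points above the interior (3 of 4 libraries, exact permutation p = 0.375), and the distal side 2.49 ± 1.56 points (4 of 4 libraries, exact permutation p = 0.125). The centromere difference was 0.482 points without the second WT library and 3.84 without the first 53BP1 KO library. Between genotypes the centromere side ranked 6.23 points lower in 53BP1 KO, at 48.8 ± 2.42 in 53BP1 KO and 55.0 ± 2.51 in WT libraries (SD, n = 2 each). Both 53BP1 KO values lay below both WT values, with −6.17 and −6.29 points within replicate numbers 1 and 2 and an exact permutation p of 0.333. For distal peaks the same difference was −0.0257 points (p = 1 in the exact permutation test), and whether the 2 sides differ in it was not tested.

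The ends differed from the interior in the extremes of the lists. Of the distal peaks 10 and 15 in 53BP1 KO and 10 and 14 in WT libraries stood in the top 1% of fold of their own list. These were 2.15 and 3.69% of the distal peaks in 53BP1 KO and 2.53 and 3.5% in WT, with a mean of 2.97% beside 0.930% in the interior, 3.19 times as high and higher in 4 of 4 libraries. On the centromere side 9 and 5 peaks in 53BP1 KO and 7 and 5 in WT libraries did so, with a mean of 1.57%, 1.69 times the interior. At the bottom of the lists the sides parted. In the weakest 10% of fold stood 14.1 and 11.2% of the centromere peaks in 53BP1 KO and 13.6 and 15.4% in WT libraries, but 8.60 and 8.13% of the distal peaks in 53BP1 KO and 7.07 and 10.0% in WT. Of these centromere peaks, 13 and 12 in 53BP1 KO and 14 and 15 in WT libraries lay in the first 40 kb of chromosome 9, described below. The share in the weakest 10% exceeded that of the interior by 3.54 points on the centromere side (higher in 4 of 4 libraries) and differed from it by −1.61 points on the distal side (higher in 0 of 4), with an exact permutation p of 0.125 for each, the lowest possible. These shares at the extremes were chosen as measures after the lists had been seen. The share in the top 1% was highest in the outermost 0.5 Mb, with a mean of 6.28% on the distal side and 3.42% on the centromere side.

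Regions with extreme fold were then listed by a rule that stands in for a repeat annotation, none of which was used here. A repeat candidate is a region called in at least 2 libraries whose fold lay in the top 1% of every list that called it. There were 3 on the centromere side (0.495% of its regions) and 8 on the distal side (1.26%), beside 0.115% of all autosome regions. With the top 5% in place of the top 1% there were 8 centromere and 11 distal candidates, so the gap between the sides was smaller. Per 100 Mb the top 1% rule gave 7.89 on the centromere side, 21.1 on the distal side and 1.20 in the interior. All 11 top 1% candidates of the 2 sides were called in all 4 libraries, as were 21 of the 28 interior candidates. The 8 distal candidates are thus among the 10 and 15 distal top 1% peaks in 53BP1 KO and the 10 and 14 in WT. On the centromere side the 3 candidates are among 9 and 5 such peaks in 53BP1 KO and 7 and 5 in WT. The excess of candidates and that of top 1% peaks are therefore in large part the same places, not 2 separate results. Of the 8 distal candidates 6 lay within 200 kb of the end of the last region, where 110 of the 633 distal regions lay, and of the 3 centromere candidates 2 lay within 200 kb of the sequence start, with 67 of the 606. That the candidates lie on repeats was not tested.

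The strongest centromere region was that at chr12:3109798-3110192, 110 kb from the sequence start. Its folds were 22.8 and 20.1 in 53BP1 KO and 23.0 and 24.1 in WT libraries, in a region of 395 bp. At chr18:3004907-3006070, 4.91 kb from the sequence start, folds were 10.3 and 9.69 in 53BP1 KO and 9.71 and 9.29 in WT libraries. The third, chr13:3372075-3372967, was the first region of its chromosome and had folds of 7.41 and 8.27 in 53BP1 KO and 8.16 and 8.28 in WT libraries. Fold thus dropped steeply after the first region. Just outside the rule, chr16:3122279-3123589 had folds of 7.45 and 6.36 in 53BP1 KO and 7.18 and 6.54 in WT libraries, and its percentile in the second WT list was 98.9. It was followed by chr16:4315661-4316552, with 7.18 and 5.48 in 53BP1 KO and 6.53 and 6.61 in WT.

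On the distal side the 3 strongest regions were each the last region of their chromosome. At chr18:90771499-90772031 folds were 17.3 and 15.0 in 53BP1 KO and 16.6 and 16.5 in WT libraries. At chr11:121843587-121843856, a region of 270 bp, they were 17.2 and 15.1 in 53BP1 KO and 14.3 and 14.4 in WT libraries. At chr2:181747400-181748038 they were 14.4 and 13.8 in 53BP1 KO and 14.2 and 14.3 in WT libraries. The groups overlapped at chromosome 2 and at chromosome 18, and at chromosome 11 both 53BP1 KO folds were above both WT folds, although folds belong to their own lists. The end of chromosome 2 carried a second candidate 82.3 kb inward, chr2:181665021-181665698, with folds of 9.03 and 8.71 in 53BP1 KO and 8.69 and 8.47 in WT libraries.

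The other 4 distal candidates lay further in. That at chr9:123370933-123371337, 673 kb from the end of the last region, had folds of 10.1 and 11.4 in 53BP1 KO and 10.4 and 11.9 in WT libraries, and was the farthest from the end. The candidate at chr1:197067567-197068648, 114 kb from the end, had 12.0 and 7.44 in 53BP1 KO and 11.5 and 9.64 in WT libraries. That at chr8:131465026-131466072 had 9.03 and 5.85 in 53BP1 KO and 8.03 and 7.37 in WT libraries, and that at chr6:149006149-149006984 had 7.62 and 6.05 in 53BP1 KO and 7.23 and 6.996 in WT libraries. In these last 3 the second 53BP1 KO library had the lowest fold, and its list also had the lowest median fold. Distal candidates had widths of 270 to 1082 bp and a median of 658.5 bp, beside 938 bp for the other distal regions of all 4 libraries. Those of chromosomes 1 and 8, with 1082 and 1047 bp, were wider than that. The 28 interior candidates had a median of 382.5 bp, beside 923 bp for the other interior regions of all 4 libraries. Only 21 of the 28 were called in all 4 libraries, so this pair of medians does not compare like with like. The 3 centromere candidates measured 395, 893 and 1164 bp, beside a median of 890 bp.

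**Figure D4:**
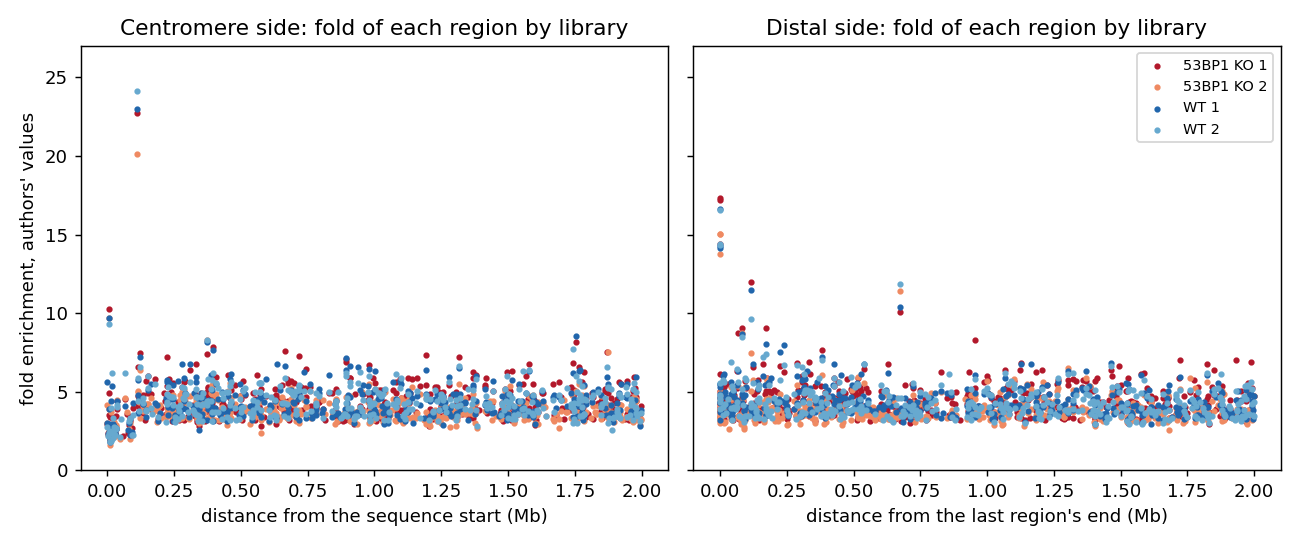
Fold enrichment of each region in each library (vertical axis, the authors' values) by distance in Mb from the sequence start on the centromere side (left) and from the end of the last region on the distal side (right). Each point is a region in 1 library; folds above 9 lie mostly within 0.2 Mb of either end, up to 24.1 on the centromere side and 17.3 on the distal side, and the low folds at the far left include the starts of chromosomes 9 and 11.

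The start of chromosome 9 showed the reverse combination, low fold with high significance. In its first 40 kb 15 regions lay between 3000123 and 3038292, 17.5 kb of covered sequence in a span of 38.2 kb, and the next region began 297 kb further on. All 4 libraries called 13 of them and 3 libraries the other 2, and the stretch held 15 and 13 peaks in 53BP1 KO and 15 and 16 in WT libraries. Median folds there were 2.43 and 2.52 in 53BP1 KO and 2.41 and 2.34 in WT libraries. Their median −log10 q was 21.2 and 25.0 in 53BP1 KO and 21.9 and 20.9 in WT libraries, against 3.01 and 2.73 for the whole lists in 53BP1 KO and 3.25 and 3.22 in WT. Significance far above the list and fold far below it thus went together in all 4 libraries. Its outermost region, at 3000123 to 3002354, had folds of 2.96 and 3.02 in 53BP1 KO and 3.00 and 2.77 in WT libraries. At its inner edge 3037165 to 3038292 had 4.40 and 4.50 in 53BP1 KO and 4.39 and 4.00 in WT libraries, near or above the middle of the lists.

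By a rule set after these values were seen, 12 centromere regions and 0 distal regions had a −log10 q of at least 5 and a fold in the weakest 10% in every list that called them, with at least 2 libraries. All 12 lay at this start of chromosome 9, and 13 autosome regions in all met the rule (0.0383%), the other one on chromosome 10 in the interior. Of the 10 peaks with the lowest fold in each list, 5 and 1 in 53BP1 KO and 4 and 5 in WT lists lay in this stretch. Without it the share of centromere peaks in the weakest 10% was 11.5 and 8.64% in 53BP1 KO and 10.5 and 12.1% in WT libraries. The interior had 9.94 and 10.2% in 53BP1 KO and 10.1 and 10.0% in WT. Much of the centromere excess in the weakest 10% thus came from this stretch, and without it the second 53BP1 KO library lay below its interior. The centromere excess over the interior was then 1.07 peaks per Mb, and the distal side exceeded the centromere side by 0.546 peaks per Mb in place of 0.158 (exact permutation p = 0.125 for each). The lower rank of the centromere side in 53BP1 KO did not rest on it: without it median percentiles were 48.1 and 51.3 in 53BP1 KO and 54.5 and 57.6 in WT libraries.

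**Figure D5:**
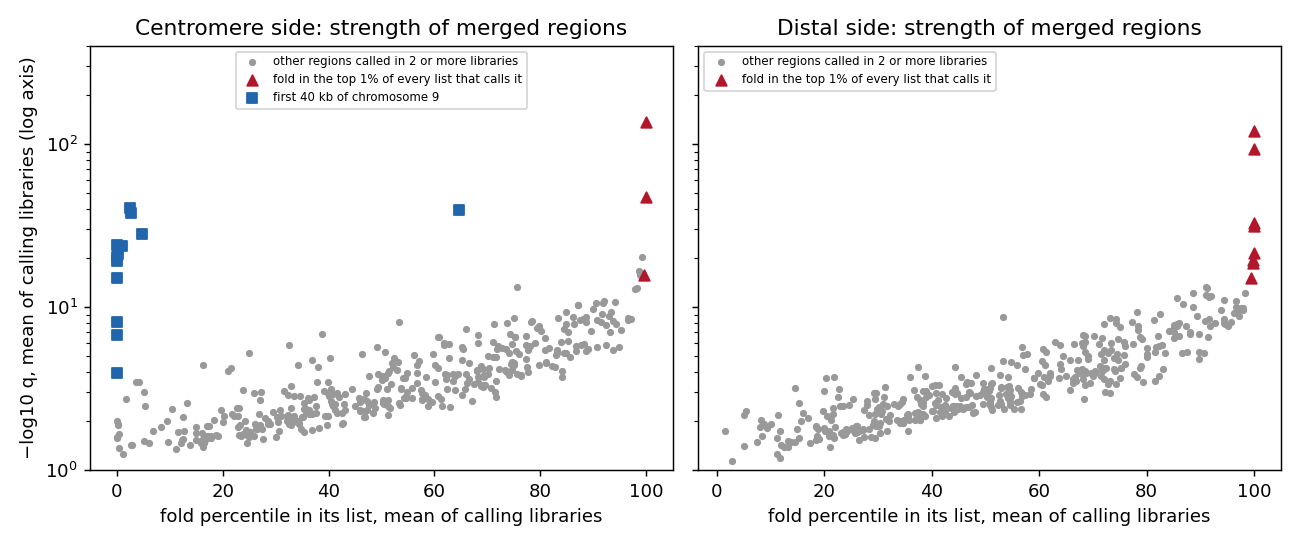
Significance of merged regions called in 2 or more libraries (vertical axis, −log10 q on a log scale) against fold percentile in the list (horizontal axis), both as means over the calling libraries, for the centromere side (left) and the distal side (right). Triangles are the 3 and 8 repeat candidates and squares the first 40 kb of chromosome 9; significance climbs with fold rank on both sides except in those squares, most of which lie near percentile 0 at a −log10 q of 4 to 41.

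The outermost region of each chromosome end was not uniformly strong. Of the 19 first regions on the centromere side 8 were called in all 4 libraries, 6 in a single library, and 2 were repeat candidates. They began 0.122 to 1323 kb from the sequence start, with a median of 97.6 kb, and chromosome 1 had the longest empty stretch. Of the 19 last regions on the distal side 9 were called in all 4 libraries, 7 in a single library, and 3 were repeat candidates. Within 200 kb of the ends all 4 libraries called 32 of 67 centromere regions (47.8%) and 46 of 110 distal regions (41.8%), beside 42.9 and 40.9% further in. Sharing near the distal tips was thus close to that further in. The 67 centromere regions include the 15 at the start of chromosome 9, of which all 4 libraries called 13. The centromere share near the tips therefore rests in part on that stretch, and it was not computed without it.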

How the data were processed

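Rad21 ChIP-seq peak lists of 4 libraries, 2 of 53BP1 KO and 2 of WT cells, were used, 1 list per library with 9 columns and no header. Per the submitters' processing notes, reads were handled with the build mm9 and with MACS2 2.2.7.1, Bowtie2 2.4.4, deepTools 3.5.1 and SAMtools 1.15.1. Settings and any input library are not stated there. Fold was deposited as a ratio of signal to background per peak. For significance the authors deposited −log10 p and −log10 q, and −log10 q began at 1.01 to 1.02. A deposited score equals 10 times −log10 q without its decimals (tolerance 1).

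Peaks of all lists on chromosomes 1 to 19 were merged when they touched or overlapped, and a region counted as called in a library with at least 1 of its peaks there. Coordinates are 1-based. A region's fold in a library is that of its strongest peak. Genotypes were compared by a two-sided exact permutation test over 6 arrangements (lowest p 0.333), sides with the interior by exact sign flips over 4 libraries (lowest p 0.125). These p-values measure the spread between libraries, and none can pass 0.05. Regions are not replicates, so counts of regions were not tested. Regions named are, per side, the 5 strongest of all 4 libraries, the first of up to 5 of each genotype only, the 3 widest, the repeat candidates, the 3 densest and 3 sparsest chromosomes and those whose counts separate the genotypes. Members, lists and rules were chosen with earlier results of these data known. Replicate numbers were not treated as pairs: changes between them in 1162 windows had a correlation of 0.079 between genotypes. Alternatives were thresholds of q and fold, equal lists of 21972 peaks, merging within 500 bp, shorter and longer sides, leaving out chromosomes 5 and 10, the candidates or each library, and, added after the data were seen, the first 40 kb of chromosome 9. Merging was tested on simulated data. Python 3.11.15 with numpy 2.4.6 and pandas 2.3.3 was used. No genome, gene or repeat annotation of mm9 was used here, so no sequence is printed. Gene order is that of RefSeq in GRCm38.p6, with no coordinates.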

Additional observations from a re-analysis of the deposited data

Results flagged for a closer look

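Chromosome X lay outside the rule for autosomes and was used in no comparison, and it is given because the lists hold peaks there. Its distal 2 Mb held 20 merged regions, 6 of them called in all 4 libraries, with 14 and 8 peaks in 53BP1 KO and 13 and 10 in WT libraries. That is 5.63 peaks per Mb, beside 3.29 in the interior of the chromosome, and no control library was used here. The centromere side held 3 regions, with 0 and 2 peaks in 53BP1 KO and 0 and 1 in WT libraries (0.375 per Mb). By the rule used for the autosomes 2 of the 20 distal regions were repeat candidates, and the last region of the chromosome was among them. Its folds were 17.6 and 18.8 in 53BP1 KO and 17.0 and 17.4 in WT libraries, close to those of the last regions of chromosomes 18 and 11. With 2 libraries per genotype, no library was tested as an outlier.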

How the results depend on the processing

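Of 157 values recomputed under alternatives other than leaving out a library or the start of chromosome 9, 122 kept their direction or, for counts of regions, stayed within 1.5 times, 22 counts of regions moved further and 13 values turned direction. Values that kept their direction could still change in size: the density excess over the interior was 0.851 (centromere) and 0.588 (distal) at a −log10 q of at least 5, and 0.220 and 3.64 with the longer sides. Causes were not tested. At a −log10 q of at least 5, 53BP1 KO minus WT was −22 centromere and −7 distal peaks, distal minus centromere density −0.263, and width minus interior −11.25 bp (centromere) and −26.4 bp (distal). That threshold left 60 centromere and 56 distal regions in all 4 libraries, 4 and 4 in 53BP1 KO only and 3 distal in WT only. At a fold of at least 4, the differences were −31 and −25 peaks and −4.75 bp (centromere width), with 85 and 93 regions in all 4 libraries, 3 and 5 in 53BP1 KO only and 18 centromere regions in WT only. Under both thresholds classes were formed after peaks were dropped, so the other genotype may hold weaker peaks in a region. With sides to 4000000 and of 1 Mb, 143 and 146 regions were in all 4 libraries, 10 and 12 in 53BP1 KO only and 4 distal in WT only. With sides to 8000000 and of 5 Mb they were 567 and 765, 46 and 52, and 21 and 38, the distal share differed by −0.108 points between genotypes, and fold percentile minus interior was −0.185 (centromere) and −1.36 (distal). Counting the gap as sequence gave a centromere density of −5.03 relative to the interior. Without chromosomes 5 and 10 distal minus centromere density was −0.147. A rule of the top 5% of fold gave 8 centromere and 11 distal candidates. Without the first 40 kb of chromosome 9, centromere width minus interior was −1.5 bp, the 1 turn among 19 values. Leaving out each library in turn gave a centromere share difference of −0.00809 to 0.108, distal minus centromere density of −0.00877 to 0.316, centromere width of −7.17 to 9.67 bp, 35 to 85 centromere and 34 to 93 distal regions of 53BP1 KO only, and 28 to 43 and 22 to 45 of WT only, where 1 library then stands for its genotype. With a replicate block, which averages differences within numbers, the paired values equal the unpaired 36.5 and 37.5 peaks by construction. Depth is unknown, so a region missing from a list may be missing for lack of reads.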
